A study of Homo sapiens with 12 samples.

Results

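Translation efficiency, the ribosome footprint signal of a gene set against its RNA signal, was described in HEK293T cells that received the vehicle DMSO and no inhibitor. The members were the genes whose mean normalized footprint signal over the 2 DMSO footprint libraries was at least 50 in the table that covers the whole series, which kept 10593 of its 12224 genes. HEK293T is an established human embryonic kidney line. The wider study compared DMSO with an inhibitor of the m6A methyltransferase METTL3, and 6 of its 12 libraries are DMSO libraries. All 6 came from wild-type cells kept for 6 h in 0.2% (v/v) DMSO. These cells also received a further 10% of fetal bovine serum for the last 1 h, which the labels give as a means of raising translation, and 100 µg/ml cycloheximide, which stalls elongating ribosomes, for the final 3 min. The state described is therefore that of serum-boosted cells. The footprint libraries (2 replicates) hold gel-selected fragments of 26 to 34 nt that survived RNase I, and the RNA libraries (4 replicates) hold polyadenylated RNA.

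Dividing the footprint columns by their smallest step returned whole reads, 4711513 and 3198063 per library, and the same held for the RNA columns, with 30310459 to 33872273 reads. Across the members, log2 signals correlated with Pearson's r = 0.985 between the footprint libraries and 0.997 or more between any 2 RNA libraries. Nothing in the labels ties a replicate to its own culture, so the spread behind every p-value is that among these 6 libraries and may be technical. All 8 marker genes of HEK293 lines were present at 1 CPM (count scaled to the library total) or more in the deposited RNA counts, against 1 of 5 markers of blood cells, 2 of 6 of epithelial carcinoma lines and 2 of 7 of fibroblasts. Just outside the footprint minimum lay SYCP2L, PKD1 and CCDC150 with mean footprint signals of 49.85, 49.86 and 49.87, and just inside it ANO4, APLF and ARMCX4 with 50.64, 50.64 and 50.65.

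Ribosomes reach most mRNAs by binding near the capped 5′ end and scanning to a start codon, and the frequency of that initiation step sets much of the protein made per mRNA. Some mRNA classes carry their own controls. Messages of the translation machinery begin with a C followed by a run of pyrimidines (a 5′ terminal oligopyrimidine tract, 5′ TOP) and are held off ribosomes when growth signalling is low. Ferritin mRNAs carry a hairpin, the iron-responsive element, that binds a repressor in iron-poor cells. The mRNA of the stress transcription factor ATF4 has short upstream reading frames that capture ribosomes before the protein-coding frame.

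The start-site sequences of members on which the results turn are shown here, from RefSeq's promoter table on GRCh38.p14, with 5 bases before the annotated start and 20 bases from it. Capitals mark the pyrimidine tract that begins at the start. Where RefSeq gives a gene several starts, the start with the longest tract is shown. The first group holds genes called far below the median gene although each has such a tract.
RPS27, chr1:153990757-153990781, plus strand: tcgctCCTTTCCggcggtgacgacc
EEF1A1, chr6:73521013-73521037, minus strand: acgttCTTTTTCgcaacgggtttgc
NPM1, chr5:171387844-171387868, plus strand: gcgtcCTTTCCCTggtgtgattccg
RPL10, chrX:154398372-154398396, plus strand: agcgcCTCTTTCCCTTCggtgtggt
TPT1, chr13:45341164-45341188, minus strand: tcggcCTTTTCCgcccgctcccccc

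The next group holds genes with a tract of the same kind that were not called, and, on its last line, the 1 ribosomal protein gene that was called above the median gene.
EEF2, chr19:3985444-3985468, minus strand: gcgttCTCTTCCgccgtcgtcgccg
RACK1, chr5:181243887-181243911, minus strand: tctctCTCTCTTTCactgcaaggcg
RPS19, chr19:41860250-41860274, plus strand: tcgttCCCTTTCCCCTggctggcag
RPLP2, chr11:809962-809986, plus strand: gccttCCTTTTCCTCCCTgtcgcca
RPL22, chr1:6199576-6199600, minus strand: acctcCCTTTCTaactccgctgccg

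The last pair shows leader elements of 2 poorly translated mRNAs within their first 50 bases. Capitals mark CAGTGN, the letters of the loop of an iron-responsive element, in the ferritin light chain gene FTL, and an ATG followed at once by a stop codon in ATF4.
FTL, chr19:48965333-48965358, plus strand: gtctcttgcttcaaCAGTGTttggac
ATF4, chr22:39520574-39520597, plus strand: gcccgcccacagATGTAGttttct

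Genes with more RNA signal also had more footprint signal. Over the 10593 members, log2 mean footprint signal and log2 mean RNA signal had a Pearson's r of 0.882 and a Spearman's rho of 0.883, a description across genes, which are not independent replicates. Efficiency is given below as log2 of footprint over RNA signal minus the value of the median gene, so 0 is the median gene, 1 is 2-fold above it and −1 is 2-fold below it. The lower and upper quartiles lay at −0.60 and 0.45, the 5th percentile at −1.68 (0.311 of the median gene) and the 95th at 2.14 times the median gene. Of the members, 8375 (79.1%) were within 2-fold of the median gene. Signals are not divided by gene length, so efficiencies are compared between genes as ratios. Where genes are ranked or grouped by signal below, length is not accounted for.

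Each gene was tested for lying more than 2-fold from the median gene with limma on log2(signal + 1), at a Benjamini-Hochberg adjusted p under 0.05 over all members. This called 216 genes above the median gene (2.04% of those tested) and 809 below it (7.64%). Without footprint replicate 1 or replicate 2 the test called 133 or 117 above. Such a fit has 1 footprint library, so its spread comes from the RNA libraries, and the lone library is assumed to vary as the weight for its assay says. This holds for every value below given without a footprint replicate. With the deposited counts of whole genes in place of the table's RNA signal, 557 genes were above and 1052 below, and with edgeR on those counts and the recovered footprint reads 835 were above and 1212 below, so the share of calls that were above was larger. These larger counts hold only part of the first calls. With whole-gene counts 73 of the 216 genes above (33.8%) and 540 of the 809 below (66.7%) were called again, and with edgeR 88 and 589. The sign was the same with whole-gene counts for 80.9% of the genes above and 98.9% of those below, against 74.0% of all members.

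**Figure D1:**
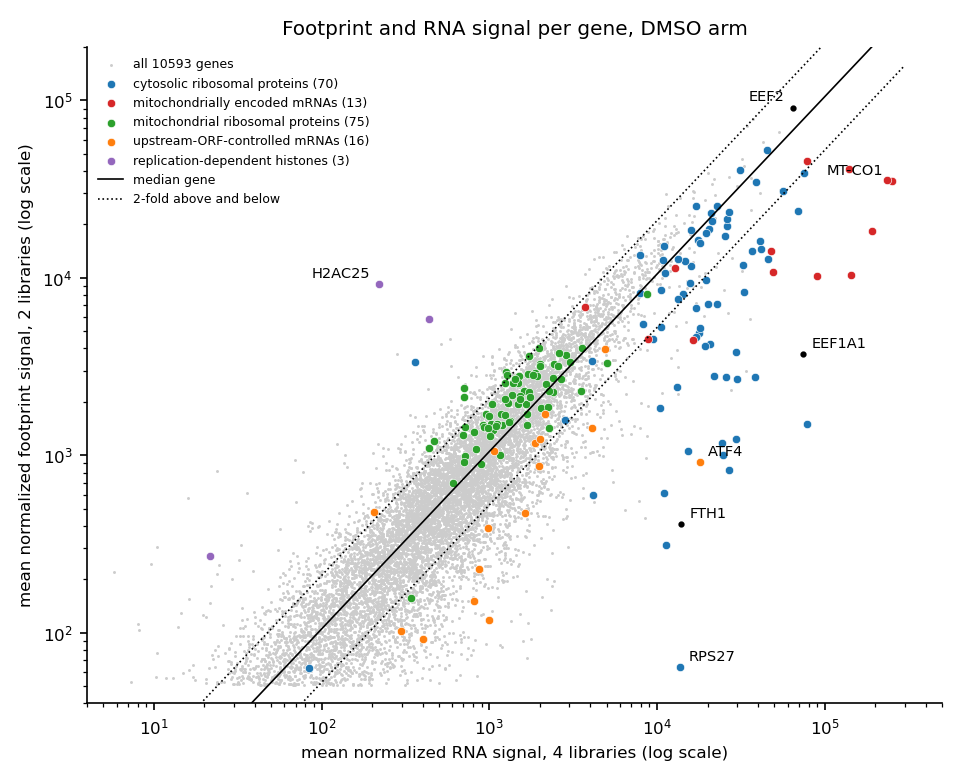
Mean normalized footprint signal (vertical, log scale, 2 libraries) against mean normalized RNA signal (horizontal, log scale, 4 libraries) for 10593 genes, with 5 gene lists in colour, the median ratio as a solid line and 2-fold distances as dotted lines. RPS27, FTH1 and ATF4 lie far below the line, EEF2 just above it, and H2AC25 far above it.

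Depth set how finely single genes could be read. Among the 1035 members with a mean footprint signal of 50 to 100, a median of 19 footprint reads per library stood behind a gene, the SD of the log2 difference between the footprint libraries was 0.64, and 11.1% differed by more than 2-fold. Among the 551 members over 5000, the median was 2116 reads, the SD 0.12, and none differed by 2-fold. Genes of low RNA are members only where their footprints reach the minimum, so the lowest of 10 equal bins by RNA (median 0.35, none below) holds no comparison. The 106 genes in the top 1% by RNA had a median efficiency of −0.92, with 42.5% below and none above. RNA levels for this grouping came from RNA replicates 3 and 4 and efficiencies from replicates 1 and 2, so that an error in 1 RNA value did not enter both, while the calls used all 4. For the top 5% by RNA, in contrast, both the grouping and the efficiencies used all 4 RNA libraries. Within that top 5%, the 239 genes without a named pseudogene had a median of 0.23 and 7.53% below. The 130 with 5 or more had −0.99 and 42.3% below. RNA level still differed between these groups, with median RNA signals of 6086 and 16503.

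The cytosolic ribosomal proteins took a smaller share of footprints than of RNA. Of 46 large-subunit genes in the table, 43 were members, with a median efficiency of −1.14, 21 called below and 1 above. Of 32 small-subunit genes, 27 were members, with a median of −0.87, 11 below and none above. With whole-gene counts the medians were −0.57 and −0.05. Together the large-subunit genes took 5.91% ± 0.056 of the RNA signal (SD, n = 4) and 3.10% ± 0.061 of the footprint signal (SD, n = 2), and the small-subunit genes 4.34% ± 0.033 and 2.13% ± 0.053. The ranges of the RNA and footprint libraries did not overlap for either subunit.

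Single ribosomal protein genes spread widely. RPS27, a small-subunit protein, had footprint signals of 80.5 and 48.2 and RNA signals of 13753, 13480.2, 13932 and 13889. Its footprint signal was thus far under its RNA signal in each library, and its efficiency was the lowest of all members at −7.83 (SE 0.12, limma adjusted p = 7.93e-15). RPS2 followed with footprint signals of 1513 and 1475 against RNA signals of 76029.5 to 80419 (efficiency −5.79). RPL10 (−5.09), RPS27A (−4.70, a ubiquitin fusion), RPL12 (−4.65), RPSA (−4.44) and RPL9 (−4.26) were also among the 15 lowest genes of all.

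At the other end, RPS19, mutated in Diamond-Blackfan anaemia, had footprint signals of 26086 and 24917 and RNA signals of 22736, 22813, 22574 and 22843, an efficiency of 0.10 that was not called. RPLP2, a protein of the ribosomal stalk, stood at 0.50 and FAU, a ubiquitin-like fusion to RPS30, at 0.68, neither of them called. RPL22 was the only ribosomal protein gene called above, at 3.14 (SE 0.10, limma adjusted p = 6.29e-10), with footprint signals of 3025 and 3658 against RNA signals of 368, 350.1, 355 and 368. Its table RNA reads were only 14.4% of its deposited gene counts, and with those counts its efficiency was 1.19. RPL41 (−0.92) and RPS29 (−0.33), which encode some of the smallest ribosomal proteins, were not called, and RPS29 stood at 0.35 with whole-gene counts.

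The 8 other ribosomal protein genes of the table had too few footprints to be members, and several of them had abundant RNA. RPL7 had footprint signals of 22.5 and 24.1 beside RNA signals of 19930.1 to 20477, and RPS3A had 25.7 and 24.1 beside 13596 to 14306. RPS26 had 6.44 and 4.82 beside 4269 to 4362, RPS28 had 12.9 and 4.82 beside 7797 to 7886, and RPL21 had 45.1 and 28.9 beside 9202 to 9351. RPL39 and RPS10 had mean RNA signals of 55.7 and 767. Counting all 8 genes, the medians were −1.34 for the large and −1.23 for the small subunit.

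The number of named pseudogenes, copies of a gene elsewhere in the genome, moved with these values. RefSeq names 30 pseudogenes after RPS27, 55 after RPS2, 61 after RPL7 and 137 after RPL21, against 7 after RPS19, 5 after RPLP2 and 4 after FAU. RPS28 goes the other way, with only 9 named pseudogenes and a value of −9.77 with no filter. It lies under the footprint minimum and so is not in the member groups that follow. The 21 ribosomal protein members with 9 or fewer named pseudogenes had a median efficiency of −0.31 with 4 called below, and the 49 with 10 or more a median of −1.54 with 28 below. With whole-gene RNA counts these medians were 0.53 and −0.73. Across the 70 members, Spearman's rho of efficiency with the pseudogene count was −0.46, and with RNA signal −0.25. Outside the ribosomal proteins, the 237 members with 5 or more named pseudogenes had a median of −0.49 and 24.9% called below, against 0.02 and 6.48% in the 8642 with none. How reads that match several copies were treated is not given in the sources used here, and the part of pseudogenes in these low values was not tested.

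**Figure D2:**
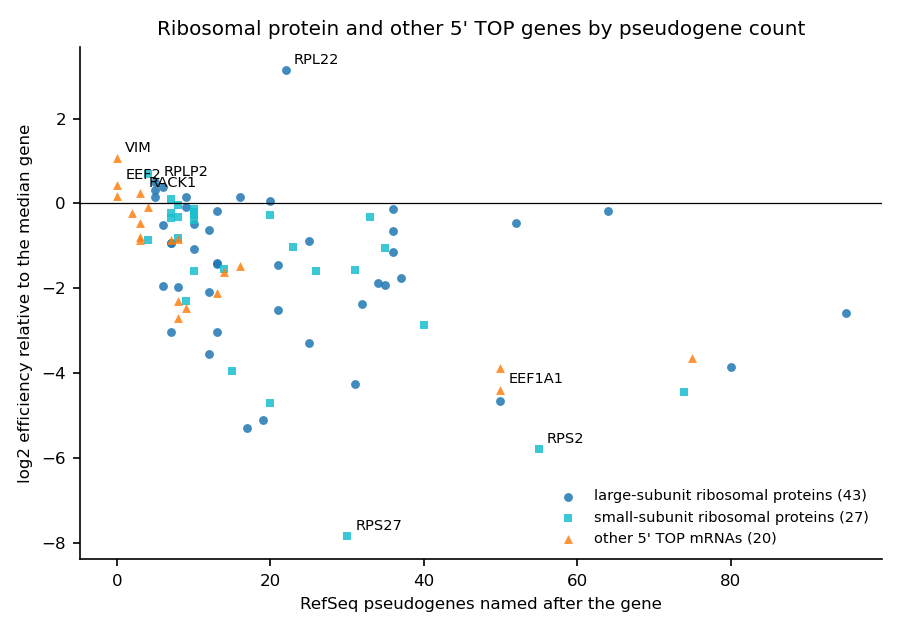
Efficiency relative to the median gene (vertical, log2) against the number of RefSeq pseudogenes named after the gene (horizontal) for large-subunit (circles) and small-subunit (squares) ribosomal protein genes and other 5′ TOP genes (triangles). RPLP2, RACK1, EEF2 and VIM, with 5 or fewer pseudogenes, lie above 0, RPS2 and EEF1A1, with 50 or more, lie far below it, and RPL22 stands apart with 22 pseudogenes at 3.14.

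The other 5′ TOP mRNAs, which encode elongation factors, poly(A)-binding protein and other growth-linked proteins, showed the same spread. Of 20 members, 9 were called below and none above, with a median of −0.86 (−0.39 with whole-gene counts, over 19 of them). The pair of elongation factors that work side by side on the ribosome stood far apart. EEF1A1, which brings aminoacyl-tRNA to the ribosome, had footprint signals of 3727 and 3726 and RNA signals of 75228, 75315, 73799 and 73609, an efficiency of −4.39 (SE 0.06, limma adjusted p = 3.24e-15). EEF2, which drives translocation, had footprint signals of 92909.5 and 88941, the highest of any gene in both libraries, and RNA signals of 65002, 64996, 62550.2 and 65506, an efficiency of 0.43 that was not called. Both genes begin with a tract of 7 pyrimidines in the sequences above, and RefSeq names 50 pseudogenes after EEF1A1 and none after EEF2.

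NPM1, a nucleolar histone chaperone, was at −3.87 with 50 named pseudogenes, and HNRNPA1, a splicing regulator, at −3.65 with 75. EEF1G (−2.70), EIF4B (−2.47), EEF1B2 (−2.31), PABPC1 (−2.12) and the growth-linked TPT1 (−1.62) were called below as well, with 8 to 14 named pseudogenes each. EEF1G had no reads in the deposited gene counts, against mean table RNA reads of 72870, so it has no value with whole-gene counts. The scaffold protein RACK1 (0.25, 3 pseudogenes) and the intermediate filament gene VIM (1.06, none) were not called. Only 3 of the 20 genes had no named pseudogene and table RNA reads from 20% of the gene counts to 5% above them, none of those 3 was called, and their median was 0.43.

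Genes with and without a tract had nearly the same median efficiency. A C followed by at least 4 pyrimidines (any of C or T) at the annotated start, read on the gene's strand, was found in 4.07% of 35116 RefSeq windows and in 684 of 8727 members with a window. A member counts as having a tract if any of its windows has one. The members with a tract had a median of −0.03 with 10.8% called below, and those without had 0.01 with 7.50% below. Among large-subunit ribosomal proteins, the 26 of 35 with a tract had a median of −1.001 against −1.45 in the other 9, and among small-subunit proteins the 17 of 21 with a tract had −0.39 against −1.66 in the other 4. Leaving out ribosomal proteins and genes with named pseudogenes, the median was 0.06 with a tract (499 genes) and 0.02 without (6645 genes). Of these genes, 6.61% with a tract and 6.73% without were called below. A window without a tract says only that these letters are not at the annotated start.

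Mitochondrially encoded mRNAs, which are made and read inside mitochondria on their own ribosomes, had high RNA and few footprints in this protocol. The 13 mRNAs took 7.89% ± 0.30 of the RNA signal (SD, n = 4) and 1.62% ± 0.20 of the footprint signal (SD, n = 2), and 9 of the 13 were called below with a median of −1.95 (−1.097 with whole-gene counts). Cycloheximide does not arrest mitochondrial ribosomes, and the gel selection was made for fragments of 26 to 34 nt, so these values describe what was captured, and the part of capture was not tested. MT-CO2, a cytochrome c oxidase subunit, had footprint signals of 9192 and 11697 and RNA signals of 142312, 150442, 137533 and 141248 (efficiency −3.85, SE 0.09, limma adjusted p = 3.61e-12). MT-ND4 (−3.46), MT-ATP6 (−3.21), MT-CO1 (−2.91) and MT-CO3 (−2.80) followed.

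The mitochondrial mRNAs differed among themselves. MT-ND1 (−2.25), MT-ND4L (−1.95), MT-ND2 (−1.84) and MT-CYB (−1.83) were called below (MT-ND2 not without footprint replicate 1, limma adjusted p = 0.135), while MT-ATP8 (−1.03), MT-ND5 (−0.84), MT-ND3 (−0.26) and MT-ND6 (0.82) were not. MT-ATP8 and MT-ATP6 lie on 1 transcript with overlapping frames, as do MT-ND4L and MT-ND4. In each pair the values given here lie apart, with the gene of the longer protein lower. Each pair shares its mRNA, and how reads were assigned to each gene is not given in the sources used here. MT-ND6, the 1 mRNA of the set read from the other DNA strand, had footprint signals of 5999 and 7721 and RNA signals of 4242, 3937, 3251 and 3414, and human MT-ND6 mRNA is known for lacking a poly(A) tail, which the RNA libraries selected for. With whole-gene counts MT-ND5 stood at 0.0036 and MT-ND3 at 0.60. Every one of the 13 mRNAs had more footprint signal in footprint replicate 2 than in replicate 1.

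Nuclear genes for the same organelle lay on the other side of the median. Of 75 member genes of the mitochondrial ribosome, 61 had a value over 0, with a median of 0.38 (0.90 with whole-gene counts), 2 called above and none below. MRPS6 (1.70, limma adjusted p = 1.68e-05) and MRPS14 (1.53, limma adjusted p = 0.000387), both of the small subunit, were the 2 called. Their share is near the 2.04% of all members called above, and 7.64% of all members were below. Together the genes of the mitochondrial ribosome took 1.08% ± 0.011 of footprints (SD, n = 2) and 0.773% ± 0.007 of RNA (SD, n = 4). The 74 nuclear-encoded subunits of oxidative phosphorylation had a median of 0.43 (1.04 with whole-gene counts), with 3 above and 3 below. COX6A1, a cytochrome c oxidase subunit, was called above with footprint signals of 3518 and 4935 and RNA signals of 522, 519, 529 and 485 (2.95), as was ATP5MJ, a small ATP synthase subunit (1.55), and ATP5F1E, the epsilon subunit of ATP synthase (−2.01), and UQCRH of complex III (−1.85) were called below. COX6A1 table RNA reads were 22.9% of its gene counts, and its efficiency with those counts was 1.68.

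The mRNAs known for inhibitory upstream reading frames were low as a class. Of 16 members, 9 were called below and none above, the median was −1.51, and 15 of the 16 had a value under 0. ATF4 had footprint signals of 946 and 887 and RNA signals of 17842, 18407, 17936 and 17752. Both footprint values lay far under all 4 RNA values, and its efficiency was −4.36 (SE 0.06, limma adjusted p = 1.01e-14). PPP1R15A, a stress-induced phosphatase subunit that restores eIF2 activity, had footprint signals of 70.8 and 164 and RNA signals of 958, 1073, 1051 and 918 (−3.26, SE 0.22). Its constitutive relative PPP1R15B was at −0.39 and was not called.

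The chaperonin-like gene MKKS (−2.52), the polyamine acetylase SAT1 (−2.19), the mitochondrial carrier UCP2 (−1.98), IFRD1 (−1.84), the transcription factor ATF5 (−1.61), AMD1 (−1.60) and IBTK (−1.43) were the other members called below. The calls of ATF5 (limma adjusted p = 0.0391) and IBTK (0.034) were lost without footprint replicate 2 (limma adjusted p = 0.109 and 1), that of ATF5 also without footprint replicate 1 (0.384) or RNA replicate 2 or 3, and that of IBTK also without RNA replicate 1 or 3. MIEF1 (−1.24, limma adjusted p = 0.108), EIF5 (−0.36) and CEBPB (1.18, limma adjusted p = 1) were not called. DDIT3, the stress transcription factor CHOP, was under the footprint minimum with footprint signals of 22.5 and 24.1 beside RNA signals of 161 to 185. Of the 12 genes of the list with no named pseudogene and table RNA reads from 20% of the gene counts to 5% above them, 6 were called below with a median of −1.42. ATF4 has 4 named pseudogenes, and its table RNA reads were 89.1% of its gene counts.

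An ATG followed at once by a stop codon (TAA, TAG or TGA), as in the ATF4 sequence above, stood in the first 50 bases of 1.77% of 35116 windows on the gene's strand and 1.63% on the opposite strand. The 112 members with one in any of their windows had a median efficiency of −0.16, and the members without had 0.01.

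Polyamine genes were low too, and they share AMD1, AZIN1 and SAT1 with the list above. All 8 members had a value under 0, 5 were called below, and the median was −1.55. Antizyme OAZ1, whose frame is completed by a polyamine-driven ribosomal frameshift, had footprint signals of 2098 and 2347 and RNA signals of 12798, 13786, 13878 and 12963, and its efficiency was −2.65 (SE 0.08, limma adjusted p = 8.76e-10). Spermine synthase SMS stood at −2.60, AMD1, which supplies the aminopropyl donor, at −1.60, and ODC1, the rate-limiting enzyme of polyamine synthesis, at −1.50. ODC1 had footprint signals of 2742 and 2535 and RNA signals of 7152, 7297, 7212 and 6918, which do not overlap. The spermidine synthase SRM (−0.50) was not called.

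Among iron genes the ferritins were low and the other members were not called. Ferritin heavy chain FTH1, with the element in its leader, had footprint signals of 367 and 453 and RNA signals of 12546, 14611, 14751 and 13787, an efficiency of −5.15 (SE 0.12, limma adjusted p = 2.3e-12). Ferritin light chain FTL, whose loop letters are shown above, had footprint signals of 435 and 453 and RNA signals of 8137, 8889, 8928 and 8170.4 (−4.33, limma adjusted p = 1.14e-12). The transferrin receptor TFRC, with its elements in the 3′ untranslated region, had footprint signals of 6012 and 5697 and RNA signals of 2558, 2667, 2709 and 2436, and its efficiency of 1.11 was not called (limma adjusted p = 0.797). EPAS1, which also has a leader element, stood at −0.15. SLC40A1, another gene of this list, was under the footprint minimum and not tested. It had footprint signals of 48.3 and 9.64 beside RNA signals of 71.6 to 81.4 (−1.77 with no filter). FTH1 and FTL have 27 and 20 named pseudogenes, TFRC has none, and the part of those copies was not tested. CAGTGN alone is common, with 6.36% of all windows holding it in their first 50 bases and 6.03% on the opposite strand. The 660 members with it in any of their windows had a median of −0.03.

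**Figure D3:**
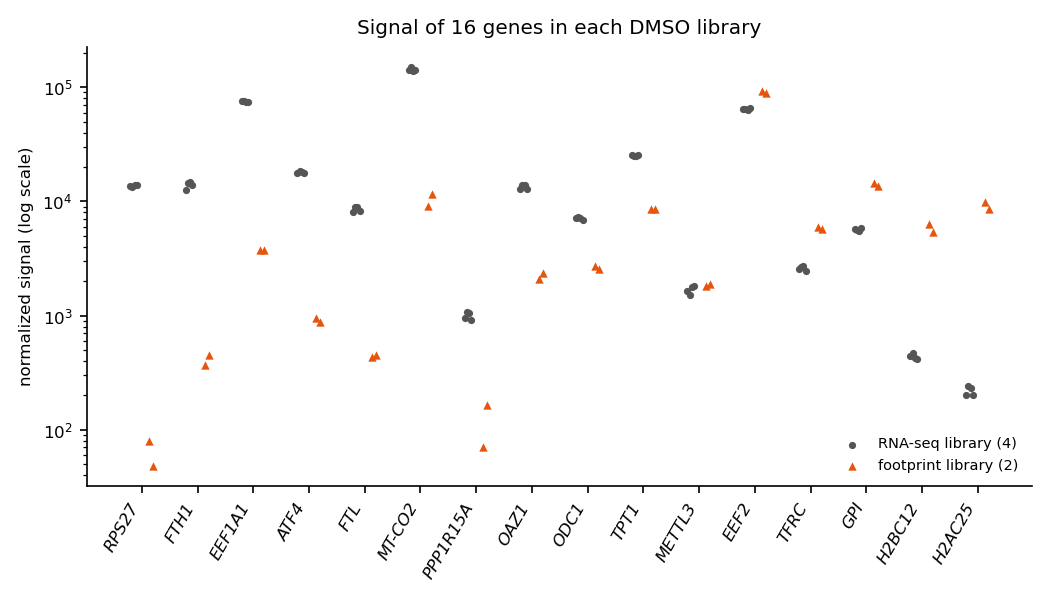
Normalized signal (vertical, log scale) of 16 genes in each of the 4 RNA libraries (grey circles) and the 2 footprint libraries (orange triangles). Genes are ordered from low to high efficiency, except that ODC1 stands before TPT1, whose efficiency is slightly lower. Footprint values lie under the RNA values from RPS27 to TPT1, lie barely above them at METTL3, and lie clearly above them from EEF2 to H2AC25.

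Replication-dependent histones were at the opposite extreme. These genes make the bulk of chromatin protein in S phase from mRNAs that end in a stem-loop instead of a poly(A) tail, and the RNA libraries hold polyadenylated RNA. Only 3 were in the table, and all 3 were called above. The RNA signals of H3C6 lay under the footprint minimum for members, so as a member it could hardly lie below the median gene. Its side of the median is therefore no separate evidence for the class. The RNA signals of H2AC25 and H2BC12 lay above that minimum. H2AC25 had footprint signals of 9810.1 and 8622 and RNA signals of 201, 241, 233 and 203, the highest efficiency of all members at 5.32 (SE 0.16, limma adjusted p = 2.62e-11). H2BC12 had footprint signals of 6350.2 and 5393 and RNA signals of 445, 468, 427 and 418 (3.67), and H3C6 had footprint signals of 315 and 227 and RNA signals of 16.18, 24.33, 30.04 and 15.96 (3.55, limma adjusted p = 0.00115, and 0.0668 without footprint replicate 1). The replacement histones, made from polyadenylated mRNAs, had a median of 0.29 (0.09 with whole-gene counts) over 9 members with none called, and the linker histone H1-10 was the highest of them at 0.90. The part of poly(A) selection in this difference was not tested.

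Subunits of some protein complexes lay close together and those of others did not. The 6 MCM2-7 subunits of the replicative helicase ran from 0.50 for MCM6 to 0.87 for MCM3, a 1.29-fold range, and the 8 TRiC chaperonin subunits, which fold actin and tubulin, from −0.32 for TCP1 to 0.51 for CCT2, a 1.77-fold range. The 7 coatomer subunits spanned 1.71-fold, the 12 eIF3 subunits 2.74-fold, the 13 core proteasome subunits 2.93-fold and the 16 regulatory proteasome subunits 3.17-fold. No subunit of these complexes was called, and their medians were 0.64, 0.10, 0.62, 0.21, 0.47 and 0.35 in the order named. With whole-gene counts the medians were 1.34, 0.91, 1.34, 0.94, 1.25 and 0.97.

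The Sm ring of spliceosomal particles and the F1 head of ATP synthase each held 1 subunit far from the rest. SNRPG, at −3.80 with 20 named pseudogenes, was called below, whereas SNRPB stood at 0.51, a 19.9-fold range over 6 subunits. In the F1 head, the epsilon subunit ATP5F1E was at −2.01 and the delta subunit ATP5F1D at 1.30 (limma adjusted p = 0.0588), a 9.95-fold range over 5 subunits. PSMC1, the 1 regulatory proteasome subunit under the footprint minimum, had footprint signals of 9.66 and 28.9 beside RNA signals of 1242 to 1341 and 13 named pseudogenes.

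Other genes of the translation machinery and of protein folding had list medians near the median gene or above it. The 40 initiation factors had a median of −0.09 (0.59 with whole-gene counts) with 3 below, a share near the 7.64% of all members. The lowest were EIF4B (−2.47), which is also a 5′ TOP gene, and EIF2S2 (−2.32), the beta subunit of eIF2. The 20 cytosolic aminoacyl-tRNA synthetases, which charge tRNAs with amino acids, had a median of 0.41 (1.08) with none called, and the 17 mitochondrial ones 0.19 (0.38) with none called. Cytosolic and mitochondrial chaperones had a median of 0.03 (0.59) and 1 of 18 called, the mitochondrial co-chaperonin HSPE1, with footprint signals of 83.7 and 96.4 beside RNA signals of 1546 to 1625 (−4.20) and 28 named pseudogenes. The 16 endoplasmic reticulum chaperones had a median of 0.33 (0.75) with none called. The share below of the cytosolic and mitochondrial chaperones was also near that of all members.

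Zinc finger, HOX and chromatin genes were taken next. The ZNF series, the largest family of zinc finger transcription factors, had 281 members with a median of −0.71, 41 called below and 2 above, and a further 104 of its genes were in the table but under the footprint minimum. Among the 1300 members of any kind with footprint signals of 100 to 200, the range that holds the ZNF median of 150.4, the median efficiency was −0.38 and 12.9% were below. ZNF276 was the lowest at −3.23, with footprint signals of 80.5 and 101 and RNA signals of 756, 733, 899 and 890.3. ZNF460 was the highest at 4.00 (limma adjusted p = 5.5e-06), with footprint signals of 589 and 641 and RNA signals of 40.5, 27.8, 33.7 and 42.6, followed by ZNF483 at 2.86. Footprint values of these 2 genes lay above all 4 RNA values, the reverse of ZNF276. The RNA signals of ZNF460 and ZNF483 lay under the footprint minimum, so as members they could hardly lie below the median gene. Of the 281 members, 260 had no named pseudogene and table RNA reads from 20% of the gene counts to 5% above them, and those had a median of −0.71 with 34 below. With all 385 genes of the table and no footprint minimum the median was −0.88.

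Histone lysine methyltransferases and acetyltransferases had a median of −0.68 over 32 members, of which 28 had a value under 0 and 4 were called below. These were KMT2E (−2.04), the H4K20 methyltransferase KMT5A (−1.48), the H3K36 methyltransferase NSD2 (−1.41) and the H3K79 methyltransferase DOT1L (−1.33, limma adjusted p = 0.0459). Without footprint replicate 1 the limma adjusted p was 0.1 for KMT5A and 0.156 for DOT1L, and without replicate 2 it was 0.0773 for NSD2 and 0.486 for DOT1L, whose call was also lost without RNA replicate 3. With whole-gene counts this median was −0.21. The ZBTB zinc finger genes had a median of −0.39 (−0.76 with whole-gene counts) with 3 of 35 below, among them ZBTB18 (−2.02), and the HOX genes, which pattern the body axis, −0.28 (−0.72) with 5 of 28 below, led by HOXA3 (−2.33) and HOXA6 (−2.07). The clock genes had a median of −0.29 (−0.67) with 1 of 12 below (the shares below of the ZBTB and clock genes are near the 7.64% of all members), the kinase CSNK1E (−2.90), whose table RNA reads were 7.60% of its gene counts.

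The serum response and cell cycle lists had medians over 0. The immediate early and serum response genes, which serum induces within minutes to hours, had a median of 0.68 (0.32 with whole-gene counts) over 31 members, 27 of them over 0, with none called. JUNB (1.36), MYC (1.03) and JUN (0.62) were examples, and MYC had footprint signals of 5929 and 6010.0 and RNA signals of 2791, 2718, 2788 and 2868, more than 2-fold apart in every pair of libraries. The G1/S and DNA replication genes had a median of 0.50, with the DNA methylation regulator UHRF1 above (1.46, limma adjusted p = 0.000639) and the transcription factor E2F1 below (−2.44, limma adjusted p = 2.35e-07). E2F1 had footprint signals of 225 and 289 and RNA signals of 1253, 1359, 1382 and 1312. The G2/M genes had a median of 0.18 (0.71 with whole-gene counts), with 12 of 34 under 0, and FOXM1, the transcription factor that drives many of them, was the 1 of 34 called, at −2.78 (footprint signals of 939.8 and 713 and RNA signals of 5364, 5495, 5429 and 5276). E2F1 and FOXM1 have no named pseudogene, and both footprint values of each lay under all its RNA values. The shares of these lists called below were under the 7.64% of all members.

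Among metabolic genes the glycolytic enzymes had the highest median, 0.58 (1.104 with whole-gene counts) over 16 members, with 2 above and none below. Of all members, 2.04% were above. GPI, the second enzyme of the pathway, was called above (1.23, limma adjusted p = 0.0196) with footprint signals of 14348 and 13591 and RNA signals of 5763, 5591, 5520.4 and 5824, a call lost without footprint replicate 1 and without replicate 2 (limma adjusted p = 0.335 and 0.094). ALDOA was the other (3.67), with footprint signals of 1029.9 and 858 and RNA signals of 71.9, 66.0, 66.9 and 74.5. The table RNA reads of ALDOA were 18.9% of its gene counts. ENO1 (0.99) had the highest footprint signal after EEF2 and was not called, and GAPDH, with 65 named pseudogenes, was at −0.85. Cholesterol synthesis genes had a median of 0.34 with 1 of 24 below (7.64% of all members were), the prenyl synthase GGPS1 (−2.09). The actin gene ACTB stood at 0.31 and was not called.

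Selenoproteins, whose selenocysteine is read from a UGA codon, had a median of −0.12 over 17 members with 2 below and 2 above. Of all members, 7.64% were below and 2.04% above. The glutathione peroxidase GPX1 (−1.95) and SELENOW (−1.58) were below. SELENOI (2.11) and the methionine sulfoxide reductase MSRB1 (1.42) were above, with table RNA reads of 12.7% and 24.4% of their gene counts, and SELENOI stood at −0.02 with whole-gene counts. GPX1, SELENOW and MSRB1 have 2, 1 and 1 named pseudogenes. Only 10 of the 17 members had no named pseudogene and table RNA reads within the limits used above. None of those 10 was called, and their median was 0.06. The call of MSRB1 (limma adjusted p = 0.0318) was lost without footprint replicate 2 (0.782).

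Genes of RNA processing held single members far from the median. Among the 15 nonsense-mediated decay factors, which remove mRNAs with early stop codons, 4 were called below, among them SMG5 (−1.98), the kinase SMG1 (−1.64) and RBM8A (−1.34, limma adjusted p = 0.2 without footprint replicate 1). The kinases CLK4 (−1.85, limma adjusted p = 0.0025) and CLK1 (−1.43, limma adjusted p = 0.0209), which phosphorylate splicing factors, were the 2 of 16 SR proteins and CLK kinases called, and without footprint replicate 2 the limma adjusted p was 0.143 and 0.12 (CLK1 also 0.215 without replicate 1). METTL3, the catalytic subunit that the study's inhibitor targets, had footprint signals of 1828 and 1894 and RNA signals of 1644, 1522, 1778 and 1827, an efficiency of 0.07, with the lower footprint value barely above the highest RNA value. In the 18 m6A genes the median was 0.06 (0.36 with whole-gene counts). The writer adaptor RBM15B was below (−2.24, limma adjusted p = 8.59e-09) and the reader IGF2BP1 above (1.64, limma adjusted p = 6.25e-06). Of all members, 7.64% were below and 2.04% above. IGF2BP1 table RNA reads were 22.9% of its gene counts, and its value with those counts was 0.36.

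**Figure D4:**
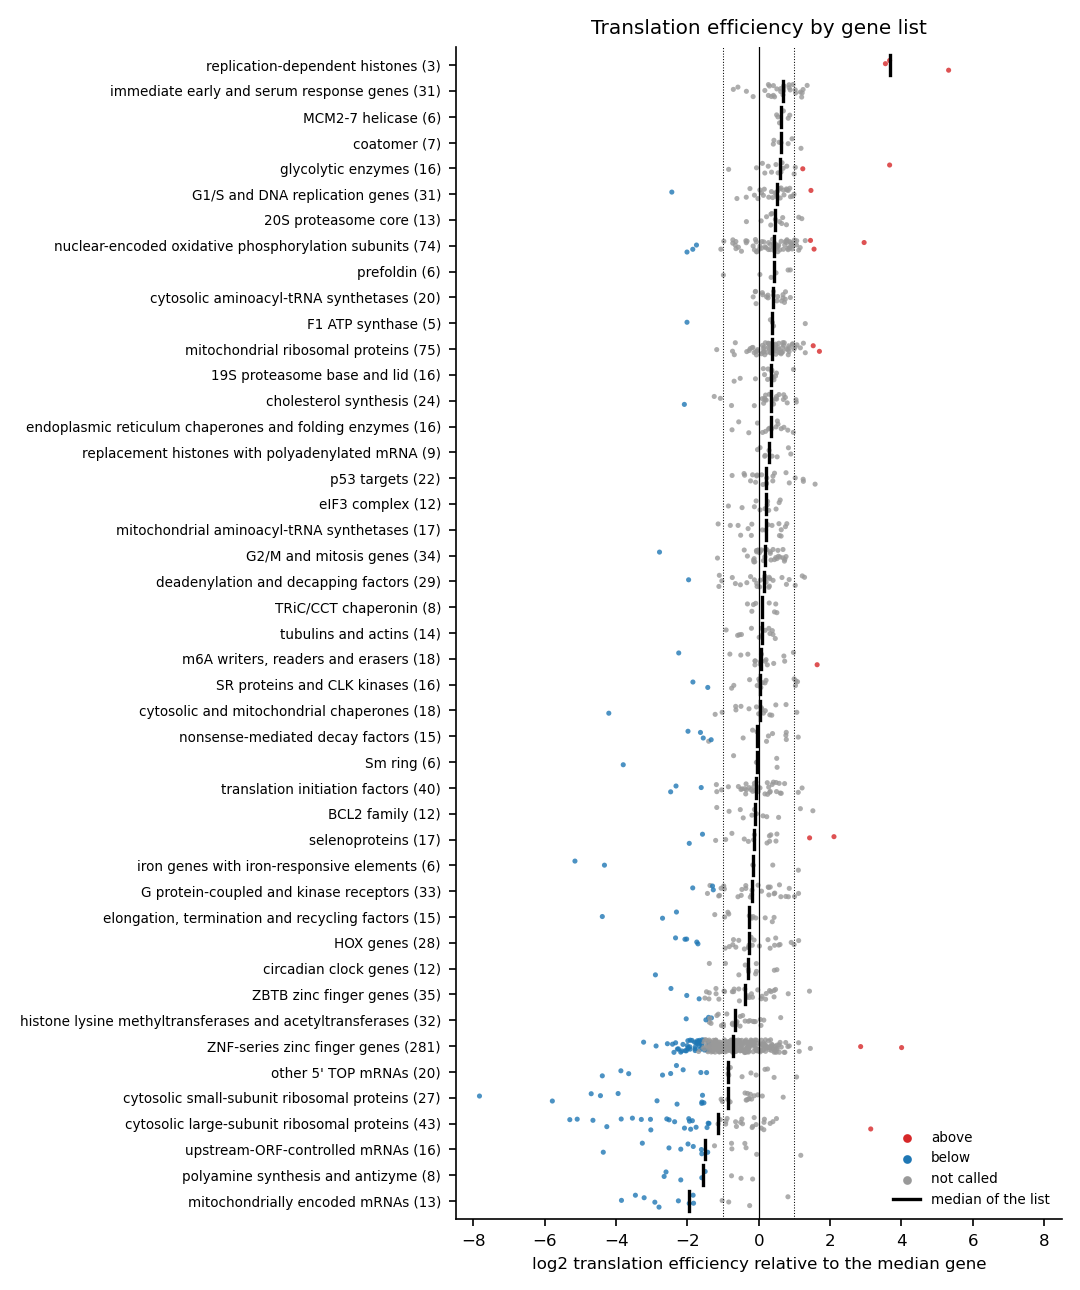
Efficiency relative to the median gene (horizontal, log2) of every member of each gene list with 3 or more members, lists ordered by median, with members called above in red, called below in blue and not called in grey, and the list median as a bar. Mitochondrially encoded mRNAs have the lowest median (−1.95) and replication-dependent histones the highest (3.67).

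The 15 highest called genes with a mean RNA signal of at least 50 included few members of any list. Beside the histones, ALDOA, RPL22 and COX6A1, they were ZFHX3, a transcription factor (3.58), LSM12 (3.26), SFT2D2 (3.15), the cytochrome c oxidase assembly factors COA3 (2.90) and COX16 (2.88), the cell cycle kinase CDK6 (2.77), the calcineurin regulatory subunit PPP3R1 (2.69), POMK (2.65), IRGQ (2.53) and RNASEK (2.39). COA3 had footprint signals of 4532 and 4559 and RNA signals of 601, 587, 579 and 562, and ZFHX3 had 2594 and 4858 and 298, 289, 255 and 287. Both genes had every footprint value above every RNA value, and with whole-gene counts they stood at 2.02 and 3.82.

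Several of these high values belong to genes of which the table counts a small part of the RNA. CDK6 had footprint signals of 1081 and 916 and RNA signals of 126, 147, 148 and 134, but its table RNA reads were 5.82% of its deposited gene counts, and with those counts its value was −0.47. SFT2D2 (4.52% and −0.45) and PPP3R1 (2.80% and −1.59) were alike, whereas RNASEK table reads were 761% of its gene counts. The median member had 62.8% of its gene counts in the table. Of the 216 genes above, 80 (37.9% of those with both values) had under 25%, against 6.94% of all members, and of the 809 below 17 had. The table's RNA signal enters both this percent and the efficiency, so the next medians differ between the RNA measures by construction. The 75 members under 10% had a median of 0.97 with the table's RNA and −1.91 with gene counts, and the 3223 members from 75% to 5% above their gene counts had −0.13 and 0.49. Which part of a gene the table's RNA covers is not given in the sources used here, and its part in these values was not tested.

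Outside the ribosomal proteins, ferritins, EEF1A1 and ATF4, the 15 lowest genes were DGKZ, a diacylglycerol kinase (−4.60), LRP3 (−4.34) and NSMF (−4.21). DGKZ had footprint signals of 86.9 and 57.8 and RNA signals of 1579.7, 1724, 1688 and 1681, LRP3 had 113 and 72.3 and 1711, 1765, 1824 and 1779, and NSMF had 109 and 159 and 2279.8, 2339.6, 2398 and 2369. These 3 genes have 1 named pseudogene or none, and their values with whole-gene counts were −4.09, −3.23 and −3.98. Of all 809 genes called below, 560 (70.4% of those matched) had no named pseudogene, and 11.4% had 5 or more, against 2.91% of all members.

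**Figure D5:**
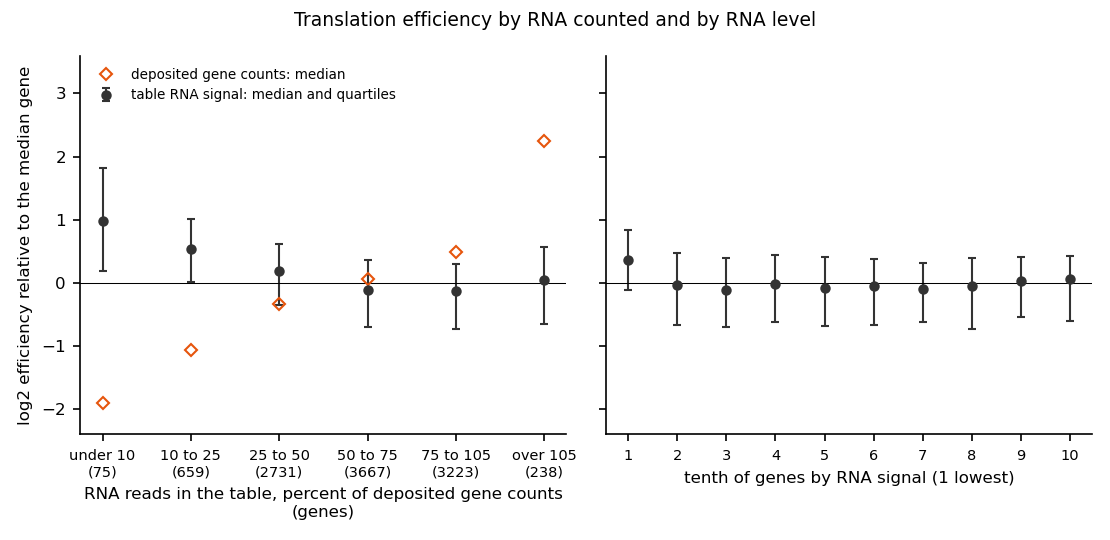
Median efficiency relative to the median gene (vertical, log2) with quartiles as bars, by the percent of deposited gene counts that the table's RNA reads make up (left, with open diamonds for the median from gene counts) and by 10 equal bins of RNA signal (right). The table's RNA enters both axes of the left panel, where the medians from the table's RNA run from 0.97 under 10% to −0.13 from 75% to 5% above, while the diamonds run from −1.91 to 0.49 over the same bins and stand at 2.25 for the 238 genes further above, and in the right panel the lowest bin stands highest, at 0.35, where the footprint minimum kept only genes with enough footprints.

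Leader composition separated genes weakly. In the 8727 members with a RefSeq window, cut into 5 equal bins by GC content of the first 50 bases, the highest bin (74% to 98%) had a median efficiency of −0.22 with 11.3% called below. The other 4 bins had medians of 0.03 to 0.08 with 6.30% to 7.16% below. Spearman's rho of efficiency with GC across these genes was −0.11, and −0.13 with whole-gene counts, both a description across genes that share libraries and depth.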

How the data were processed

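Ribosome footprints (2 DMSO libraries) and polyadenylated RNA (4 DMSO libraries) were taken from the series table, whose values are normalized signals deposited by the authors. The counts of RNA reads per whole gene were deposited by the authors for each RNA library. The submitters' processing notes name the build GRCh38.p12 and the tools DESeq2, SAMtools 1.10, featureCounts from Subread 2.0.3, UMI-tools 1.1.2, STAR 2.7.3a, bedtools 2.29.2 and FastQC 0.11.9, with no role or order. How reads with several matches were treated, and which RNA features the table counts, is not given in the sources used here. The 6 columns of the inhibitor arm were not used, nor were ratios in the table.

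Signals were 100% whole multiples of 1 read within 0.1 read, which gave 4711513 and 3198063 footprint reads and a median of 139 and 93 per gene. Efficiency was fitted with limma 3.58.1 in R 4.3.3 on log2(signal + 1), with one weight for each assay (0.258 footprint, 1.97 RNA), centred on the median gene and tested for a distance over 2-fold with treat and Benjamini-Hochberg adjustment. The whole-gene setting used the deposited counts scaled by DESeq2 1.42.0 size factors and left out 40 members, and edgeR 4.0.16 was run on the same counts and the recovered footprint reads. The scripts were tested on simulated data. Pseudogenes were counted by RefSeq names that extend a gene's symbol. Symbols came from the supplied gene table for 12216 of 12224 genes, and RefSeq windows for 8727 members.

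The members and the 47 gene lists were chosen with earlier results of these data known. The text names the 15 highest and 15 lowest called genes with RNA signal of at least 50, the 2 highest and 2 lowest of each list it describes, a fixed set (ATF4, ATF5, PPP1R15B, FTH1, FTL, TFRC, ODC1, AMD1, OAZ1, EEF1A1, EEF2, PABPC1, TPT1, METTL3, RPL41, RPS29, GAPDH, ACTB, MYC and JUN), extremes of complexes and 3 genes on each side of the minimum, while other names were chosen after their values were seen. Some genes that this rule would name are not reported here. Efficiency per codon and protein features were not analysed here.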

Additional observations from a re-analysis of the deposited data

Results flagged for a closer look

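Of 136 sets of 4 RNA values tested, 5 had 1 library far from the other 3 relative to the spread, and chance flags about 1 in 20 such sets. RNA replicate 2 held the outlying value in 3 of these sets. Its RNA signal was 80.4 for COX16 (65.3 to 67.5 in the other libraries), 2098 for MIEF1 (1923 to 1939) and 14378 for MT-ND3 (12210 to 12484). Another was RPS27A, whose RNA signal was 25205 in RNA replicate 3 and 24674 to 24738 in the others, and the last LRP5, with 1735 in RNA replicate 4 and 1673 to 1678 in the others.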

How the results depend on the processing

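Of the 94 named called genes, 82 lost the call in no setting that held the gene, other than whole-gene counts, edgeR and a 3-fold distance. Of 131 named genes, 56 were in the setting without pseudogenes, 111 in that with a footprint minimum of 200 and 127 in those with an RNA minimum. The 12 that lost it in 1 or more of the settings counted here were ATF5, CLK1, CLK4, DOT1L, GPI, H3C6, IBTK, KMT5A, MSRB1, MT-ND2, NSD2 and RBM8A. With whole-gene counts 15 named genes lost the call with the sign kept, and 4 called genes changed sign. With edgeR 13 lost it with the sign kept, and at a 3-fold distance 28 lost it. Counts of genes above were 557 with whole-gene counts, 835 with edgeR, 889 at a 1.5-fold and 40 at a 3-fold distance, 118 without pseudogene-bearing genes and genes outside 20% of to 5% above gene counts, and 117 to 227 with 1 library left out. Counts below were 1668 at 1.5-fold, 273 at 3-fold and 529 without those genes. Alternatives with RNA replicates 3 and 4, with both signals of at least 50, and without those genes were chosen after seeing the data.

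Replicate numbers do not mark shared cultures in the labels, and same-numbered libraries deviated with r = 0.0383 over all members and 0.0552 at a footprint signal of at least 200. With the replicate block, fitted with RNA replicates 1 and 2 only, 250 genes were above and 840 below. The same libraries without the block gave 242 and 836. The oxidative phosphorylation median was 0.41 with and without the block in these libraries.

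Large-subunit ribosomal proteins had medians of −1.38 at a footprint minimum of 20, −1.36 at 200, −1.34 with no filter and with an RNA minimum of 50, −1.12 with both minimums, −0.57 with whole-gene counts and edgeR, −1.03 centred on the mean gene, and −1.24 to −1.13 with 1 library left out. Small-subunit proteins had −1.23 with no filter and with the RNA minimum, −0.048 with whole-gene counts, −0.054 with edgeR and −0.76 centred on the mean. Other 5′ TOP mRNAs had −0.83 at 20, −0.95 at 200, −0.79 with no filter and the RNA minimum, −0.84 with both minimums, −0.39 with whole-gene counts, −0.40 with edgeR, −0.74 centred on the mean, −0.90 to −0.85 with 1 library left out, and the reversed value of 0.43 over the 3 genes without pseudogenes. Mitochondrially encoded mRNAs had −1.097 with whole-gene counts and −1.11 with edgeR.

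Mitochondrial ribosomal proteins had 0.30 at 200, 0.44 with no filter, 0.45 with the RNA minimum, 0.90 with whole-gene counts, 0.89 with edgeR, 0.49 centred on the mean and 0.47 without pseudogenes. Oxidative phosphorylation had 0.45 at 20 and with both minimums, 0.34 at 200, 0.49 with no filter and the RNA minimum, 1.04 with whole-gene counts, 1.046 with edgeR, 0.54 centred on the mean, 0.69 without pseudogenes and 0.42 to 0.44 with 1 library left out. Upstream-frame mRNAs had −1.09 at 200, −1.40 centred on the mean, −1.42 without pseudogenes and −1.52 to −1.44 with 1 library left out, and polyamine genes −1.44 centred on the mean and −1.13 without pseudogenes. ZNF genes had −0.68 with a pseudocount of 10, −0.88 at 20 and with no filter, −0.41 at 200, −0.89 with the RNA minimum, −0.62 with whole-gene counts and edgeR and −0.60 centred on the mean. Histone methyltransferases and acetyltransferases had −0.61 with the RNA minimum, −0.21 with whole-gene counts, −0.22 with edgeR, −0.56 centred on the mean and −0.76 to −0.63 with 1 library left out.

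Over member genes only, the RNA share was 5.78% for large-subunit proteins, 4.21% for small-subunit proteins and 2.93% for other 5′ TOP mRNAs. Without ribosomal proteins (8671 genes), the highest minus lowest GC bin was −0.30, and −0.24 at 200 and −0.38 with whole-gene counts, and tract minus other start was −0.0046, and −0.045 with whole-gene counts. Values changed sign with whole-gene counts and edgeR for CDK6 (−0.47 and −0.45), MT-ND3 (0.60 and 0.59), PPP3R1 (−1.59 and −1.56), RPS29 (0.35 and 0.34), SELENOI (−0.015 and −0.028), SFT2D2 (−0.45 and −0.46) and TCP1 (0.48 and 0.48), and with whole-gene counts for MT-ND5 (0.0036) and ANO4 (0.029). METTL3 was at −0.019 with RNA replicates 3 and 4 and −0.017 at a minimum of 200, and APLF at −0.23 without footprint replicate 2. The causes were not tested. Complex subunits per codon, protein length and N-terminal stretches were not run, and depth limits genes near the footprint minimum most.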

Other observations

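The remaining lists are given beside all members, of which 7.64% were below and 2.04% above. The p53 targets had a median of 0.21 (−0.23 with whole-gene counts) over 22 members with none called, the BCL2 family, which governs apoptosis, −0.09 (−0.62) over 12 with none called, and tubulins, actins and their partners 0.08 (0.44) over 14 with none called. The 6 prefoldin subunits, which hand actin and tubulin to TRiC, had a median of 0.41 (0.85) with none called. Elongation, termination and recycling factors had −0.27, with 3 of 15 below, all 3 of them genes described above. Deadenylation and decapping factors had a median of 0.14 (0.03), with 1 of 29 below, the deadenylase subunit CNOT7 (−1.97). Receptors had a median of −0.20 (−0.40), with 3 of 33 below and none above, the lowest the Wnt co-receptor LRP5 (−1.85).

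Among list genes under the footprint minimum, SNHG32, a host of small nucleolar RNAs, had footprint signals of 22.5 and 38.6 beside RNA signals of 784 to 832. The glycolytic PGAM1 had 29.0 and 4.82 beside 658 to 686, and 13 named pseudogenes.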
